A study of Mus musculus with 9 samples.

Results

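Growth hormone receptor to STAT5 signalling was followed through 10 genes, Ghr, Jak2, Stat5a, Stat5b, Socs2, Cish, Igf1, Igfals, Bcl6 and Cux2, which were picked by their symbols from the 33211 genes of the deposited table. All 10 had enough counts to be among the 14220 genes tested. RNA-seq had been performed on the liver of wild-type male mice of the C57BL/6 inbred strain (the J substrain in the methods of the study). Both groups were fed a high-fat diet (HFD), which after opening was kept in a freezer for 1 group (HFDfre, n = 5) and in a fridge for the other (HFDfri, n = 4), so that storage of the diet was the only labelled difference and no group on normal chow entered the comparison. The question put to the data is whether transcript levels in the liver depended on where the diet was stored. Nothing in the labels beyond the separate sample names says that each library came from its own animal, so the p-values measure the spread between these libraries.

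Growth hormone from the pituitary binds its receptor on hepatocytes, which activates the kinase JAK2, and JAK2 in turn phosphorylates STAT5A and STAT5B so that they enter the nucleus and bind DNA. STAT5 raises the transcription of Igf1 and Igfals, whose products form the circulating IGF-1 complex, and of Socs2 and Cish, whose products shut the receptor down again. In rodents the hormone is released in pulses in males and more evenly in females, and the liver reads this pattern through STAT5, with BCL6 and CUX2 as repressors that act against parts of the programme. RNA-seq measures the transcripts of these genes and not the phosphorylation of their products.

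Library totals ran from 58614917 to 69353439 counts, and between 15969 and 16561 genes were detected in a library. The summed level of 8 hepatocyte markers, Alb among them, was between 99908 and 106962 CPM (counts per 1000000 counts of the scaled library total) in HFDfre and between 90695 and 124073 CPM in HFDfri, so the defining genes of the labelled tissue were present. In bulk tissue, fewer cells of a type and less RNA per cell cannot be told apart. Of 10 measures of library composition, none had an adjusted p under 0.05. With 5 and 4 libraries, the lowest p that the two-sided exact permutation test can give is 0.0079. After adjustment over 10 measures, a measure that differed alone could not pass, so such a difference was not tested. The smallest p observed was that of the share of counts from mitochondrial genes. This share was 15.4% ± 3.04 in HFDfre and 10.6% ± 2.07 in HFDfri (two-sided exact permutation test, p = 0.0397, adjusted 0.397). Gm26924, a ribosomal RNA-like locus, took between 0.466% and 11.1% of the counts of a library.

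Igf1, which encodes the growth factor IGF-1, and Ghr, the receptor gene, stood highest of the 10 genes when levels were divided by exon length. This length merges all annotated exons of a gene (9.53 kilobases for Socs2 and 6.42 for Cish). The order therefore depends on the annotation, and a gene whose main transcript is shorter reads lower here. Over the 9 libraries the median level per kilobase of exon was 54.8 CPM for Igf1, 45.95 CPM for Ghr and 34.9 CPM for Igfals, which encodes the acid-labile subunit of the IGF-1 complex. Stat5b followed at 5.41 CPM per kilobase. Cish was at 2.63, Jak2 at 2.11, Bcl6 at 2.07, Socs2 at 1.41 and Stat5a at 1.26 CPM per kilobase, and Cux2 was last at 0.0300. The ranges over libraries of neighbours in this order overlapped, except between Ghr and Igfals, between Igfals and Stat5b, and between Stat5a and Cux2. The liver libraries thus held the receptor and the IGF-1 genes at levels well above those of the kinase, the STATs and the inhibitors, and held Cux2 near the limit of detection.

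STAT5 is known to bind DNA at the palindrome TTCNNNGAA, and promoters are shown here because this motif is the point at which the pathway meets its target genes. RefSeq (GRCm38.p6) promoter windows of 300 bases, 250 before and 50 after each start, were matched by symbol for 9 of the 10 genes, all but Socs2, and gave 16 windows. The motif, which reads the same on both strands, was found in 5 of the 16 windows and in 3 of the 9 genes, Cish, Bcl6 and Igfals. Of all 32851 windows 8.30% held it, and of all 27025 symbols 9.55% held it in a window. In the sequences the motif is in capitals, each run is written 5′ to 3′ on the strand of the gene, and positions are those of its first base, counted with the start as 1. At Cish, a feedback inhibitor, the stretch at chr9:107296654-107296683 (plus strand) held the motif at positions 1 and 12, inside an annotated exon and UTR. At Bcl6 the start at 23988852 had the motif at -118, in chr16:23988951-23988980 (minus strand), outside annotated exons. The start at 23981283, which lies inside the gene, had it at -168, -122 and -88, in chr16:23981357-23981457 (minus strand), also outside exons, and 0.0335% of all windows held it 3 or more times. At Igfals the motif stood at -236 of the start at 24877844, in chr17:24877598-24877627 (plus strand), and at -58 of the start at 24878231, in chr17:24878163-24878192 (plus strand), both outside exons.
Cish: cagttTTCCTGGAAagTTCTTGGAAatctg
Bcl6, start at 23988852: agcaaattagTTCTCAGAAttccagaggcc
Bcl6, start at 23981283: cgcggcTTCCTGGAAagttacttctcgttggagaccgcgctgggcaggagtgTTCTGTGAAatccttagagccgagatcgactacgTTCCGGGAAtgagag
Igfals, start at 24877844: gatctataatTTCTCAGAAaagaggctgag
Igfals, start at 24878231: ctgccaggtgTTCCTAGAAgaggccctggg
A match of these letters is a description of the sequence, and binding of STAT5 was not measured here.

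None of the 10 genes passed the adjusted threshold of 0.05 between HFDfri and HFDfre in edgeR's quasi-likelihood test, which 1.05% of all tested genes passed. None passed it with limma-voom, nor did any of the 9 to which DESeq2 gave an adjusted p. DESeq2 gave none to Cux2, whose unadjusted p there was 0.0107. With an unadjusted p under 0.05 stood 1 of the 10, Cux2, against 21.2% of all tested genes. The groups did not overlap for 1 of the 10, Stat5b, against 7.69% of all tested genes. The fold change was above 0 for 4 genes and below 0 for 6, and its median was -0.06 on the log2 scale, against -0.0068 over all tested genes. With a library left out this median lay between -0.12 and -0.01, and with library totals in place of TMM scaling it was 0.0085, against 0.05 over all tested genes. The values of each gene are given below as CPM in replicate order.

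**Figure D1:**
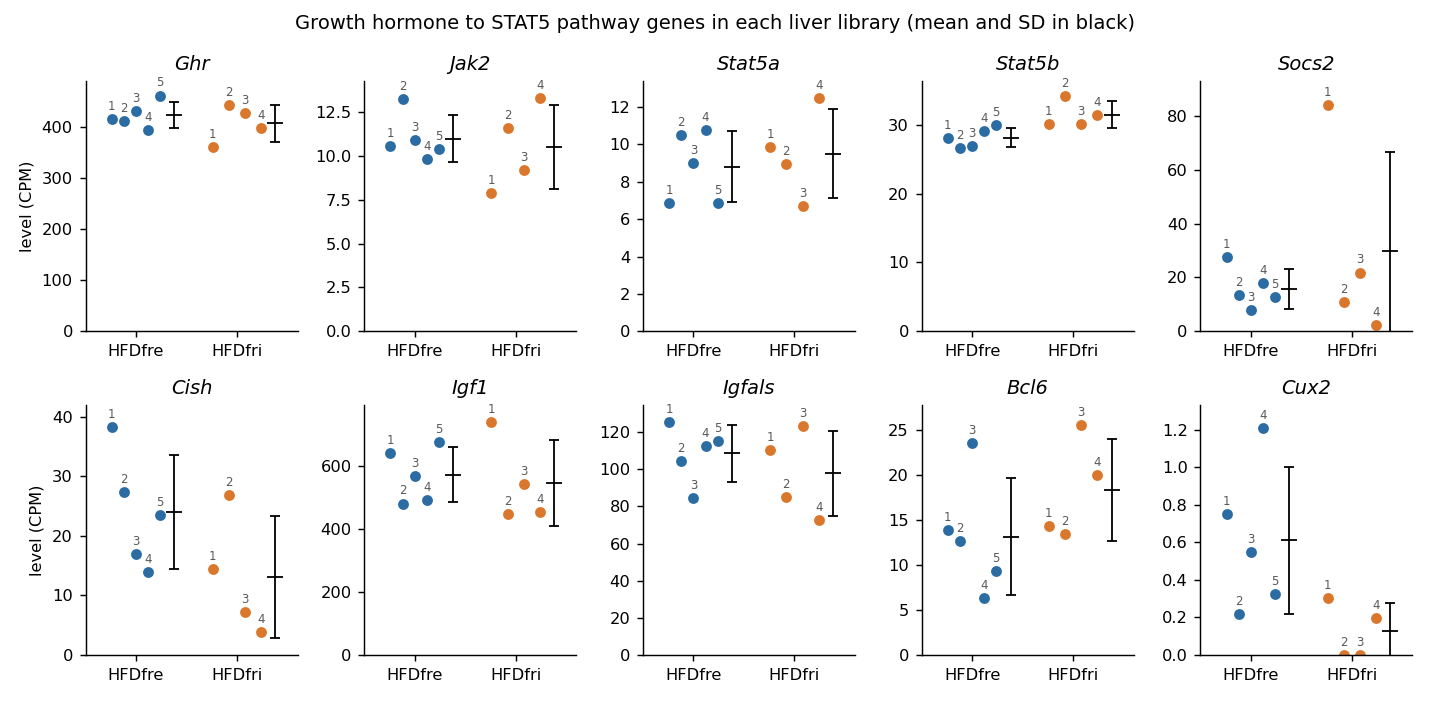
Level in CPM (linear axes from 0, 1 panel for each gene) in each of the 5 HFDfre (blue) and 4 HFDfri (orange) libraries, with replicate numbers over the points and the mean and SD in black. Stat5b is the gene whose groups do not overlap (26.6 to 29.9 against 30.1 to 34.3 CPM), while for Socs2 a single HFDfri library at 83.9 CPM stands far above the rest.

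The receptor transcript was level. Ghr (ENSMUSG00000055737, chromosome 15, 3317760 to 3583492, minus strand) was at 416, 412, 431, 393 and 461 CPM in HFDfre and at 361, 443, 427 and 397 CPM in HFDfri. The groups overlapped, with HFDfri 1 the lowest of the 9 libraries and HFDfre 5 the highest. The means were 423 ± 25.4 (SD, n = 5) and 407 ± 36.1 CPM (SD, n = 4), and the log2 fold change was -0.05 ± 0.09 (SE) with a 95% interval of -0.26 to 0.15 (edgeR quasi-likelihood test, adjusted p = 0.784). As a ratio of HFDfri to HFDfre, this interval runs from 0.836 to 1.11.

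Jak2 (ENSMUSG00000024789, chromosome 19, 29251828 to 29313080, plus strand), the kinase bound to the receptor, was at 10.6, 13.3, 10.95, 9.82 and 10.4 CPM in HFDfre and at 7.92, 11.6, 9.22 and 13.3 CPM in HFDfri. The HFDfri libraries lay on both sides of the HFDfre range, with HFDfri 1 and 3 under it and HFDfri 4 just above it. The log2 fold change was -0.06 ± 0.16 (SE, interval -0.40 to 0.28, edgeR adjusted p = 0.852).

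The genes of the paired transcription factors lie side by side on chromosome 11, Stat5b (ENSMUSG00000020919) at 100780731 to 100850724 on the minus strand and Stat5a (ENSMUSG00000004043) at 100859351 to 100885169 on the plus strand. Their coding sequences are much alike, so reads could have been split between them and both values carry that uncertainty. The last 72 of the 7133 exon bases of Stat5a also overlap those of Stat3 on the opposite strand. Stat5a was at 6.85, 10.5, 9.01, 10.8 and 6.86 CPM in HFDfre and at 9.86, 8.96, 6.71 and 12.5 CPM in HFDfri. The lowest and the highest of the 9 libraries were both from HFDfri, numbers 3 and 4, and the log2 fold change was 0.11 ± 0.20 (SE, interval -0.32 to 0.54, edgeR adjusted p = 0.795). Stat5b, the main STAT5 of the liver, was at 28.1, 26.6, 26.9, 29.1 and 29.9 CPM in HFDfre and at 30.2, 34.3, 30.1 and 31.4 CPM in HFDfri. Every HFDfri library thus lay above every HFDfre library, though HFDfre 5 and HFDfri 3 were close. The means were 28.1 ± 1.41 and 31.5 ± 1.95 CPM, a log2 fold change of 0.16 ± 0.08 (SE, interval -0.02 to 0.34), with an unadjusted p of 0.0709 and an adjusted p of 0.283 in edgeR's quasi-likelihood test. Stat5b kept a fold change above 0 in all 21 alternatives, between 0.12 and 0.22, and passed the adjusted threshold in none of them.

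The feedback inhibitors varied widely between libraries. Socs2 (ENSMUSG00000020027, chromosome 10, 95385362 to 95417180, minus strand), whose product competes for the receptor and marks it for degradation, was at 27.5, 13.4, 7.74, 17.9 and 12.6 CPM in HFDfre and at 83.9, 10.8, 21.8 and 2.37 CPM in HFDfri. HFDfri held both the highest and the lowest of the 9 libraries, numbers 1 and 4, which differed 35.4-fold, whereas the HFDfre libraries spanned 3.55-fold. These extremes rest on 4714 and 144 counts, so neither is at the detection limit. The log2 fold change was 0.91 ± 0.71 (SE, interval -0.64 to 2.46, edgeR adjusted p = 0.495). Without HFDfri 1 it was -0.45, and limma-voom, which averages on the log scale, gave 0.02.

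Cish (ENSMUSG00000032578, chromosome 9, 107296026 to 107302784, plus strand), the other STAT5-induced inhibitor and the gene with the pair of motifs at its start, was at 38.2, 27.3, 16.9, 13.9 and 23.5 CPM in HFDfre and at 14.4, 26.9, 7.18 and 3.83 CPM in HFDfri. HFDfri 3 and 4 lay under all HFDfre libraries, while HFDfri 2 was level with HFDfre 2. The means were 23.97 ± 9.57 and 13.1 ± 10.2 CPM, and the log2 fold change was -0.87 ± 0.47 (SE, interval -1.89 to 0.15), with an unadjusted p of 0.0870 and an adjusted p of 0.312 in edgeR's quasi-likelihood test. Over the 21 alternatives the fold change lay between -1.50, reached without HFDfri 2, and -0.43, and the adjusted p between 0.0952 and 0.865. Without HFDfri 4 the fold change was -0.57. Cish and Socs2, both known targets of STAT5, had fitted differences of opposite sign, neither past the test. Without HFDfri 1 both were below 0, at -0.93 for Cish and -0.45 for Socs2. The HFDfri library highest for Socs2 was not the one highest for Cish, while HFDfri 4 was the lowest of all libraries for both. Annotated genes on the opposite strand cover 4.07% and 7.46% of the exon bases of Cish.

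**Figure D2:**
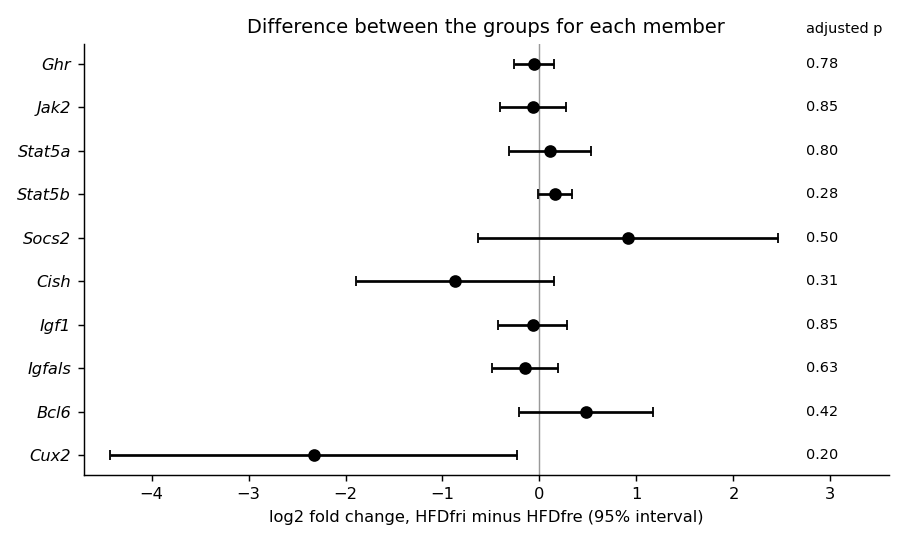
Log2 fold change of HFDfri minus HFDfre for each of the 10 genes (points) with its 95% interval (bars) from edgeR's quasi-likelihood fit, and the adjusted p at the right. The intervals of Ghr, Jak2, Stat5a, Stat5b, Igf1 and Igfals are short and lie close to 0, those of Socs2, Cish and Cux2 are wide, and no adjusted p is under 0.198.

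The IGF-1 genes did not separate the groups. Igf1 (ENSMUSG00000020053, chromosome 10, 87858265 to 87937042, plus strand) was at 643, 481, 570, 493 and 677 CPM in HFDfre and at 741, 447, 543 and 454 CPM in HFDfri. HFDfri 1 was the highest library and HFDfri 2 and 4 the lowest, and the log2 fold change was -0.07 ± 0.16 (SE, interval -0.43 to 0.29, edgeR adjusted p = 0.849). As a ratio this interval runs from 0.744 to 1.22. Igfals (ENSMUSG00000046070, chromosome 17, 24865997 to 24882010, plus strand) was at 125.7, 105, 84.4, 113 and 115 CPM in HFDfre and at 110.4, 85.3, 123 and 72.8 CPM in HFDfri. The ranges overlapped, with HFDfri 4 the lowest, and the log2 fold change was -0.15 ± 0.16 (SE, interval -0.49 to 0.20, edgeR adjusted p = 0.628). It was -0.28 without HFDfri 3 and -0.03 without HFDfri 4.

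Bcl6 (ENSMUSG00000022508, chromosome 16, 23965052 to 23988852, minus strand), a repressor that shares binding sites with STAT5, was at 13.8, 12.6, 23.6, 6.33 and 9.35 CPM in HFDfre and at 14.3, 13.4, 25.5 and 20.02 CPM in HFDfri. HFDfre 1 and 3 lay within the HFDfri range and the other HFDfre libraries under it. The means were 13.1 ± 6.52 and 18.3 ± 5.61 CPM, and the log2 fold change was 0.48 ± 0.32 (SE, interval -0.21 to 1.17, edgeR adjusted p = 0.418). Leaving out HFDfre 3 gave 0.79, leaving out HFDfri 3 gave 0.28 and leaving out HFDfre 4 gave 0.30, and the 5 libraries with a Gm26924 share under 3% (2 of HFDfre and 3 of HFDfri) gave -0.05.

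Cux2 (ENSMUSG00000042589, chromosome 5, 121856366 to 122050102, minus strand), a repressor known for its female-biased expression in mouse liver, was scarce, with 39, 14, 36, 86 and 23 counts in HFDfre and 17, 0, 0 and 12 counts in HFDfri. These were 0.751, 0.218, 0.551, 1.21 and 0.322 CPM in HFDfre and 0.303, 0, 0 and 0.197 CPM in HFDfri. A count of 0 allows a level of up to 0.0415 CPM in HFDfri 2 and 0.0407 CPM in HFDfri 3 (3 counts, counting error only). HFDfri 2, 3 and 4 lay under all of HFDfre, and HFDfri 1 lay within its range. The log2 fold change was -2.33 ± 0.96 (SE, interval -4.43 to -0.23), with an unadjusted p of 0.0327 and an adjusted p of 0.198 in edgeR's quasi-likelihood test, and with so few counts its size depends on the fit. The fold change was below 0 in all 19 alternatives that gave one, between -3.85 and -1.40, with adjusted p between 0.0893 and 0.757 where one was given, which DESeq2 did not do.

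**Figure D3:**
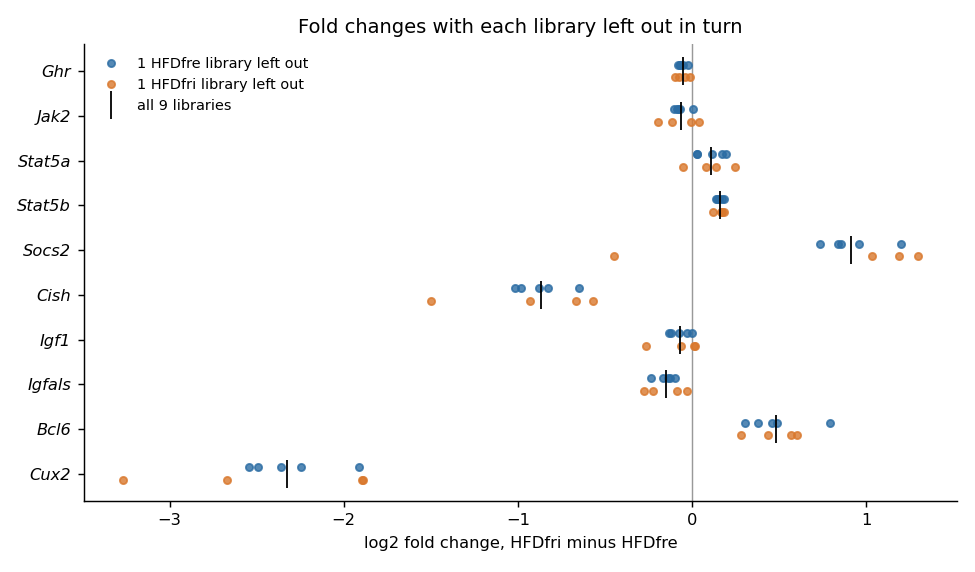
Log2 fold change of HFDfri minus HFDfre for each gene with 1 HFDfre library (blue) or 1 HFDfri library (orange) left out, and with all 9 libraries (black bar). Socs2 goes from 0.91 to -0.45 when HFDfri 1 is left out, Cish reaches -1.50 without HFDfri 2, and no value leaves the 95% interval of the fit with all libraries.

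The genes differed widely in the spread between libraries of a group. Ghr and Stat5b were among the steadiest: their SD of log2 CPM was larger than that of 8.12% and 4.68% of tested genes in HFDfre, and of 15.4% and 6.62% in HFDfri. Jak2, Stat5a, Igf1 and Igfals were near the middle, each above 35.9% to 66.9% of genes in HFDfre and 60.1% to 64.7% in HFDfri. Socs2 and Cish were toward the other end, with an SD of 0.673 and 0.573 in HFDfre and of 2.14 and 1.21 in HFDfri. The HFDfri values were larger than those of 99.6% and 95.4% of genes. Cux2 stood above 93.9% of genes in HFDfre and 98.9% in HFDfri, at counts where sampling alone adds spread, and Bcl6 above 89.3% and 71.4%. These percentages describe the libraries at hand and set each gene beside tested genes of every level, those with few counts included. No comparison with genes of like level was made, and the difference in spread between the groups was not tested.

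**Figure D4:**
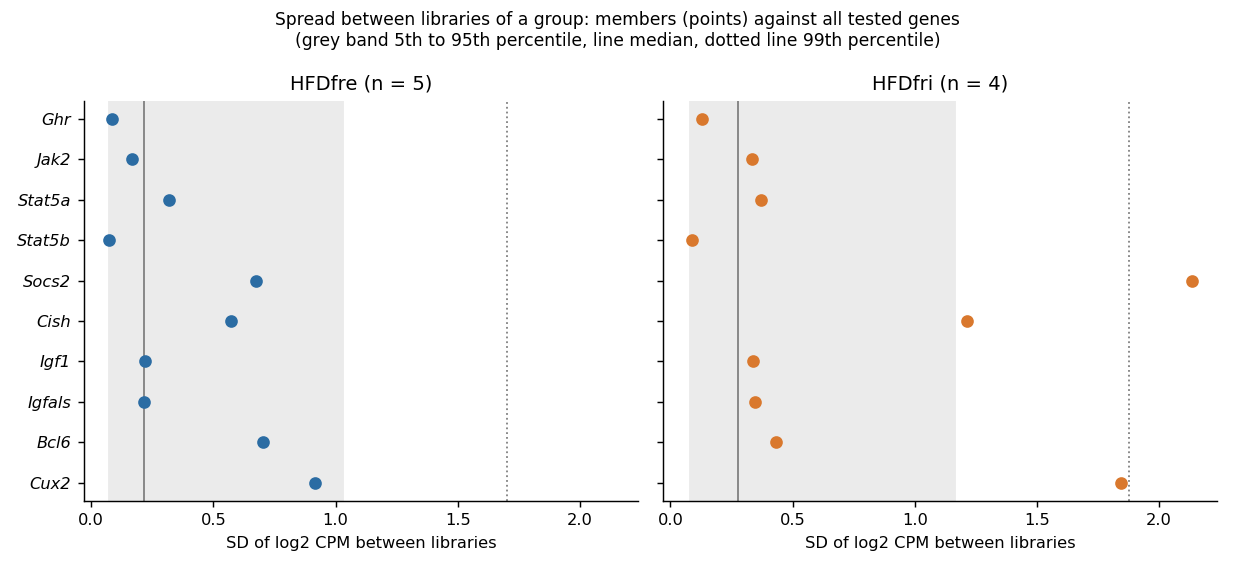
SD of log2 CPM between libraries (horizontal axis) for each gene in HFDfre (left) and HFDfri (right), over the 5th to 95th percentile of all tested genes (grey band), their median (line) and 99th percentile (dotted line). Ghr and Stat5b sit at the low edge of the band in both groups, and Socs2 in HFDfri, at 2.14, lies beyond the 99th percentile.

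Only 5 pairs of these genes, chosen after the data were seen, were compared across the 9 libraries, and other pairs were not examined. None of the 5 passed an exact permutation test after adjustment. With 9 libraries this does not show that the genes are unrelated. Igf1 and Igfals, which are induced together by growth hormone, had a Pearson r of 0.574 (exact permutation p = 0.107, adjusted 0.537) and a Spearman rho of 0.533 (exact permutation p = 0.148, adjusted 0.738), and r was 0.592 without the 2 libraries farthest from the median of Igf1. Socs2 and Cish had an r of 0.413 (exact permutation p = 0.266, adjusted 0.666) and a rho of 0.183 (exact permutation p = 0.644, adjusted 0.982), and r was -0.0739 without HFDfri 1 and 4, so that the value rests on those libraries. Ghr and Igf1 had an r of -0.157 (exact permutation p = 0.690, adjusted 0.862) and a rho of -0.05 (exact permutation p = 0.912, adjusted 0.982), with r at 0.144 without the 2 farthest libraries. For Stat5a and Stat5b r was 0.0458 (exact permutation p = 0.909, adjusted 0.909) and rho 0.0167 (exact permutation p = 0.982, adjusted 0.982), with r at -0.0960 without 2 libraries. For Socs2 and Bcl6 r was -0.230 (exact permutation p = 0.564, adjusted 0.862) and rho -0.0667 (exact permutation p = 0.880, adjusted 0.982), with r at -0.138 without 2 libraries.

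The genes with the profile most like Ghr over the 9 libraries, among the 10123 tested genes whose mean log2 CPM reached 1, were Dpyd (r = 0.941), Mapk9 (r = 0.916) and Snx16 (r = 0.904). For Socs2 they were Spata22 (r = 0.943), Lphn2 (r = 0.930) and Vps16 (r = 0.902). For Igf1 they were Derl2 (r = 0.976), Cr1l (r = 0.972) and Rpl21 (r = 0.969), and for Bcl6 Dtx3l (r = 0.957), Ube2o (r = 0.899) and Galns (r = 0.880). With so many genes and 9 libraries high values arise readily, and of these 12 genes 3 were named again when library totals replaced the scaling.

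Around the 10 genes, 51 other genes of growth hormone, JAK-STAT and IGF-1 signalling were listed, and 48 were tested. Of these 29 had a fold change above 0 and 19 below, with a median of 0.14 on the log2 scale. This median was 0.05 without HFDfri 2, with the Gm26924 share as a covariate and in the libraries under a Gm26924 share of 3%, and 0.09 without HFDfre 4. Stat3 and Jak1 passed the adjusted threshold, both higher in HFDfri, where 0.499% of all tested genes were called. With an unadjusted p under 0.05 stood 20 of the 48, 12 higher and 8 lower in HFDfri, against 21.2% of all tested genes. The groups did not overlap for 8 of them, Lepr, Jak1, Shc1, Stat3, Stat6, Ptpn6, Grb10 and Hnf4a, against 7.69% of all tested genes.

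By role, 1 of 9 kinases and adaptors and 1 of 4 other STATs passed the threshold, all of them tested. None of the 5 other receptors, of the 13 tested negative regulators (10 above 0 and 3 below), of the 9 tested IGF ligand and binding protein genes (6 above and 3 below) or of the 8 hepatocyte transcription factors (4 above and 4 below) did so. In these groups the numbers with an unadjusted p under 0.05 were 2, 5, 3 and 4, against 21.2% of all tested genes. In the same groups limma-voom called 0 genes, against 148 of all 14220 tested genes. DESeq2, which gave no adjusted p to 4 of these genes, called 1033 of all tested genes. In these groups it called 2 receptors (Lepr and Prlr), 1 negative regulator (Grb10), 1 binding protein gene (Igfbp1) and 2 transcription factors (Hnf4a and Foxa2). Socs1, Pappa and Pappa2 had too few counts to be tested.

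Stat3, the STAT of the interleukin-6 and leptin receptors, was at 39.6, 45.6, 37.3, 38.4 and 47.1 CPM in HFDfre and at 100.3, 64.7, 56.4 and 90.7 CPM in HFDfri. Every HFDfri library was above every HFDfre library, and the means were 41.6 ± 4.45 and 78.03 ± 20.8 CPM, so that Stat3 rose by 0.91 ± 0.16 on the log2 scale (SE, edgeR adjusted p = 0.0322). Its fold change lay between 0.75 and 1.04 in the 21 alternatives. It stayed past the threshold in 12 of them and was past it no longer without any 1 of the HFDfre libraries or without HFDfri 4, with adjusted p between 0.0509 and 0.0932 in those 6 fits. Jak1, a kinase that serves many cytokine receptors but not that of growth hormone, was at 50.6, 52.5, 48.03, 46.5 and 52.6 CPM in HFDfre and at 66.7, 60.9, 67.3 and 62.7 CPM in HFDfri. The groups did not overlap here either, and with means of 50.05 ± 2.70 and 64.4 ± 3.10 CPM Jak1 rose by 0.36 ± 0.08 on the log2 scale (SE, edgeR adjusted p = 0.0496). Its fold change lay between 0.33 and 0.42 in the 21 alternatives and passed the threshold in 8 of them. It did not pass without any 1 of the HFDfre libraries or without HFDfri 3 or 4, with adjusted p between 0.0749 and 0.146. The kinase and the STAT of the growth hormone receptor itself, Jak2 and Stat5b, had fold changes of -0.06 and 0.16, and whether these differ from those of Jak1 and Stat3 was not tested.

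Of the genes of this list that did not pass, 5 had an adjusted p under 0.1, Lepr, Hnf4a, Stat6 and Igfbp1 with a fold change above 0 and Foxa2 with one below. Lepr, the leptin receptor, was at 2.35 ± 0.456 CPM in HFDfre and 5.05 ± 1.65 in HFDfri, with a log2 fold change of 1.10 that just missed the threshold (edgeR adjusted p = 0.05004) and passed it in 7 of 21 alternatives. Hnf4a, a transcription factor of the hepatocyte, had 0.46 on the log2 scale (edgeR adjusted p = 0.0566), Stat6, the STAT of interleukin-4, had 0.33 (edgeR adjusted p = 0.0662), and Igfbp1, an IGF-binding protein gene, had 1.36 (edgeR adjusted p = 0.0965). Foxa2, a hepatocyte transcription factor, had a value of -0.64 on the log2 scale (edgeR adjusted p = 0.0853), and Prlr, the receptor of prolactin, the relative of growth hormone, had -0.58 (edgeR adjusted p = 0.131). Foxa2 and Prlr each passed in 2 of 21 alternatives, DESeq2 and the fit without HFDfri 1. Ptpn6, a phosphatase that acts on JAK2, had -0.28 (edgeR adjusted p = 0.134).

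Genes known as male-biased or female-biased in mouse liver are classical readouts of the growth hormone pattern and were set beside the pathway. The lists were written with some of these results known (Selenbp2, Serpina1e, the Mup genes and Acot3), so their direction is not independent evidence. All 21 male-biased genes were tested and all 21 had a fold change above 0, with a median of 0.74 on the log2 scale against -0.0068 for all tested genes and with 49.1% of all tested genes above 0. Of these 6 passed the adjusted threshold, all higher, where 0.499% of all tested genes were called, and 12 did not overlap between the groups, where 4.02% of all tested genes were higher without overlap. Over the alternatives the median stayed between 0.61 and 0.86 and at least 19 genes above 0.

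Selenbp2, a selenium-binding protein gene, was at 268, 261, 217, 121 and 256 CPM in HFDfre and at 2008, 661, 1261 and 1053 CPM in HFDfri. No libraries overlapped, and Selenbp2 rose by 2.47 ± 0.30 on the log2 scale (SE, edgeR adjusted p = 0.0117). Cyp7b1, an oxysterol hydroxylase, was at 80.9, 96.1, 82.2, 56.4 and 84.4 CPM in HFDfre and at 346, 120, 254 and 193 CPM in HFDfri, which is a rise of 1.51 ± 0.25 (SE, edgeR adjusted p = 0.0293). HFDfri 1 was the highest library for both, and without it the fold changes were 2.13 and 1.23. Serpina1e, of the alpha-1-antitrypsin family, rose by 2.09 (edgeR adjusted p = 0.0314), C6, a complement component, by 1.14 (0.0354), Ugt2b38 by 0.81 (0.0293) and Ugt2b1, its relative among the glucuronosyltransferases, by 0.51 (0.0464). Selenbp2, Serpina1e, both Ugt2b genes and the Mup genes have near-identical copies among which reads could be split, so their values are uncertain. The other 15 genes of the list, the 4 Mup genes among them, had log2 fold changes between 0.01 and 1.17 and did not pass. The 6 calls fell to 1 without HFDfre 3, HFDfre 5, HFDfri 3 or HFDfri 4, to 2 without HFDfre 4 and to 3 without HFDfre 1 or HFDfre 2. Over all tested genes, the fits that left 1 call here left 6, 6, 10 and 26 calls, in the same order.

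Of 25 female-biased genes 18 were tested, and 14 of these had a fold change below 0 and 4 above, with a median of -0.90 on the log2 scale. Without HFDfre 4 the median was -0.56, and over all alternatives it stayed between -1.04 and -0.56. Acot3 and Tox passed the adjusted threshold, both lower in HFDfri, where 0.556% of all tested genes were called. The 8 genes with an unadjusted p under 0.05 were all lower, where 9.79% of all tested genes were. Acot3, a peroxisomal acyl-CoA thioesterase with close relatives beside it, was at 22.5, 22.1, 20.7, 50.4 and 28.2 CPM in HFDfre and at 4.29, 4.77, 8.05 and 3.92 CPM in HFDfri, and fell by 2.45 on the log2 scale (SE 0.30, edgeR adjusted p = 0.0117). Tox, a nuclear protein gene, fell by 1.03 (SE 0.19, edgeR adjusted p = 0.0354), from 6.68 ± 1.45 to 3.27 ± 0.534 CPM. Slc22a27, an organic anion transporter, was at 2.69 ± 2.18 CPM in HFDfre and 0.442 ± 0.126 in HFDfri, a log2 fold change of -2.60 with an adjusted p of 0.0522 in edgeR's quasi-likelihood test. Cyp2c69, Cyp2c40 and Prom1, which had the smallest p among the genes above 0, had 0.71, 0.42 and 0.39 (edgeR adjusted p between 0.418 and 0.726), and Cyp2c69 and Cyp2c40, which are near-identical copies, turned below 0 without HFDfri 1. Without HFDfri 1 the calls in the list were 6, and without HFDfre 2, 3, 4 or 5 or HFDfri 3 or 4 they were 1. The 7 genes not tested, Cyp2b13, Cyp3a16, Cyp3a41a, Cyp3a41b, Sult2a1, Sult3a1 and A1bg, had at most 35 counts in a library.

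**Figure D5:**
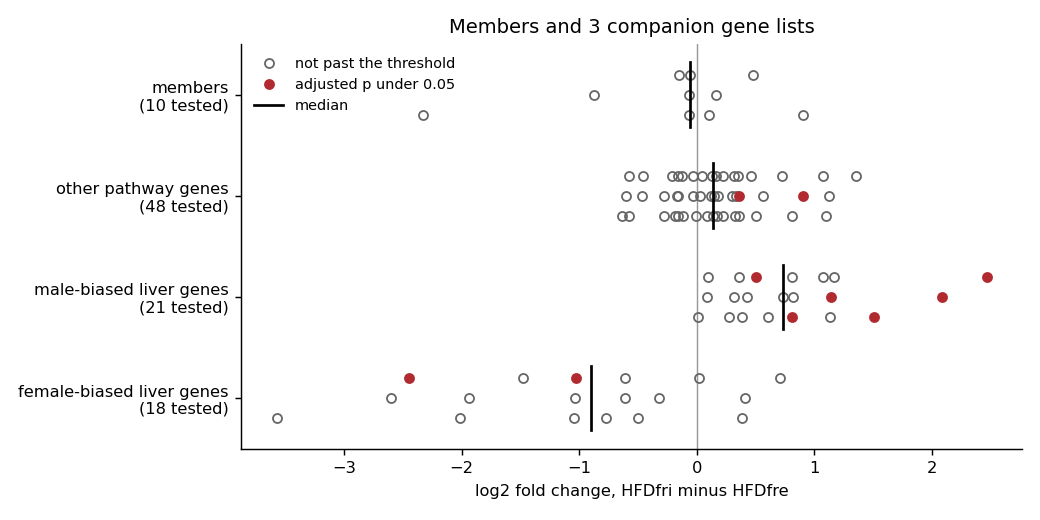
Log2 fold change of HFDfri minus HFDfre (horizontal axis) for each tested gene of the pathway set of 10, of the 48 other pathway genes, of the 21 male-biased and of the 18 female-biased liver genes, with genes past an adjusted p of 0.05 filled in red and medians as bars. The medians are -0.06, 0.14, 0.74 and -0.90, and red points are absent from the first set. The second median is 0.05 without HFDfri 2 and the last is -0.56 without HFDfre 4.

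The share of mitochondrial counts and of Gm26924 differed among the libraries, as given above, and their part in these results was not tested beyond the fits that follow. With mitochondrial genes and Gm26924 taken out of the counts, 0 of the 10 genes, 4 of the other pathway genes, 8 male-biased and 2 female-biased genes passed the adjusted threshold. With the Gm26924 share as a covariate these counts were 0, 0, 2 and 1, and the medians of the male-biased and female-biased genes were 0.86 and -0.93. Of the 8 hepatocyte markers none passed and 5 had an unadjusted p under 0.05, against 21.2% of all tested genes. DESeq2 called 4 of the 8, against 1033 of all 14220 tested genes, and limma-voom called 0, against 148. Of the other cell types, all 7 Kupffer cell markers, 6 sinusoidal endothelium, 6 stellate cell and 6 lymphocyte markers and 5 of 6 cholangiocyte markers were tested, and none passed the adjusted threshold. Among these 1 stellate cell and 1 cholangiocyte marker had an unadjusted p under 0.05, DESeq2 called 1, Sox9, and limma-voom 0, and DESeq2 gave an adjusted p to only 1 of the 6 lymphocyte markers. The summed level of the lymphocyte markers was between 1.47 and 3.43 CPM in HFDfre and between 1.03 and 1.88 CPM in HFDfri, and that of the Kupffer cell markers between 60.7 and 134 and between 70.8 and 93.2 CPM. Of 5 pancreatic enzyme genes, Cpa1, Pnlip and Prss2 had 0 counts in every library, Ctrb1 had at most 4 and Cela2a at most 27.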

How the data were processed

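Total RNA had been extracted from liver with TRIzol and sequenced as paired-end Illumina reads. The library kit is NEBNext Ultra per the labels and KAPA RNA HyperPrep per the methods of the study, which was not settled here. The authors deposited 1 table of estimated counts per gene, unscaled, and the submitters' processing notes name HISAT2, StringTie and mm10. Neither the annotation nor any use of strand is given in the sources used here, so reads of overlapping genes on opposite strands cannot be told apart. Among low deposited values multiples of 4 are too frequent, with 3990 values of 4 beside 2172 of 3 and 1840 of 5, and the cause was not tested. The estimated counts were whole, so rounding left them as they were.

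Of 33211 genes 19775 had a count, and edgeR's filterByExpr kept 14220. HFDfri was compared with HFDfre, from the group in each sample's title, with the two-sided quasi-likelihood test of edgeR 4.0.16 (R 4.3.3, TMM, no covariate) and Benjamini-Hochberg adjustment over all tested genes. The study used DESeq2, run here as an alternative (1.42.0), as was limma-voom (3.58.1). CPM is a count per TMM-scaled library total, and log2 CPM used a prior count of 2. Levels are mean ± SD. Of the identifiers 96.3% were in GENCODE M21 (GRCm38), the source of coordinates and exon lengths. Promoter windows came from RefSeq. The 10 genes and all lists were chosen with earlier results of these data known. Beyond the 10, genes were named if past the adjusted threshold or among the 3 smallest p in each direction in a list, or among the 3 highest r for Ghr, Socs2, Igf1 and Bcl6, and composition genes were also named. A few further genes were named as members of counts of 8 or fewer, after their values were seen.

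On counts simulated for 13916 genes, the test recovered 71 of 99 genes set to change by log2 1 and 85 of 94 set to change by log2 2, and made 3 false calls. The alternatives were DESeq2, limma-voom, other scalings and filters, robust dispersion, a replicate term, a Gm26924 covariate, the libraries under a Gm26924 share of 3%, counts without mitochondrial genes and Gm26924, and each library left out. Counts divided by 4, correlations between genes, and leaving out libraries for composition and profiles were added after seeing the data.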

Additional observations from a re-analysis of the deposited data

Results flagged for a closer look

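In 3 of 76 sets of 4 or 5 libraries, 1 library stood far from the rest of its group, where chance gives about 1 in 20, or 3.8 sets. All 3 were low values of HFDfre 4, and none was of the 10 pathway genes. The log2 CPM of Selenbp2 in HFDfre 4 was 6.92, while the rest of HFDfre lay from 7.76 to 8.07. That of Ugt2b1 was 7.99, while the rest lay from 8.30 to 8.39. The pancreas markers summed to 0.0702 CPM in that library, while the rest lay from 0.311 to 0.382 CPM, all near the limit of detection. The sets share libraries and are not independent. HFDfre 4 was the lowest of the 9 libraries for every male-biased gene that passed the adjusted threshold except Ugt2b38. It was the highest for Acot3, Slc22a27 and the pathway gene Cux2, but not for Tox, Cyp2c69, Cyp2c40 or Prom1. Without HFDfre 4 the medians were 0.63 for the male-biased and -0.56 for the female-biased genes.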

How the results depend on the processing

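None of the 10 genes passed the adjusted threshold in any of the 21 alternatives, though DESeq2 gave Cux2 no adjusted p. The number with an unadjusted p under 0.05, 1 as reported, was 2 with limma-voom and 0 with a minimum of 10 counts in every library, with the Gm26924 covariate, in the libraries under a Gm26924 share of 3% and with counts divided by 4, and 0 to 2 with a library left out. Cux2 was not tested under that minimum or with counts divided by 4. The sign turned for Ghr (0.010) and Jak2 (0.0066) with library totals, which moved the median of all genes to 0.05, and for Jak2 (0.033) and Bcl6 (-0.053) in the libraries under 3%. With a library left out, Ghr ran from -0.10 to -0.01, Igfals from -0.28 to -0.03, Bcl6 from 0.28 to 0.79, Jak2 from -0.20 to 0.039, Stat5a from -0.051 to 0.24, Socs2 from -0.45 to 1.29, Igf1 from -0.26 to 0.016, Cyp2c69 from -0.26 to 0.97, Cyp2c40 from -0.19 to 0.62 and Prom1 from -0.13 to 0.67. The r of Ghr and Igf1 ran from -0.508 to 0.498, that of Stat5a and Stat5b from -0.148 to 0.216 and that of Socs2 and Cish from -0.214 to 0.608. The cause was not tested.

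Calls among the other pathway genes, 2 as reported, were 9 with DESeq2, 1 with DESeq2 size factors, library totals or no filter, 4 with robust dispersion or without mitochondrial genes and Gm26924, 0 with the Gm26924 covariate and in the libraries under 3%, and 0 to 9 with a library left out. Male-biased calls, 6 as reported, were 10 with DESeq2, 2 with the covariate, 0 under 3% and 1 to 8 with a library left out. Female-biased calls, 2 as reported, were 7 with DESeq2, 1 with the covariate and under 3%, and 1 to 6 with a library left out. The libraries under 3% number 5. Over all genes, 150 calls became 1033 with DESeq2, 76 with library totals, 72 without a filter, 38 with the covariate, 2 under 3% and 1106 without HFDfri 1. They became 235 without HFDfri 2, and without any other library they fell, to between 6 (HFDfre 3 or HFDfre 5) and 51 (HFDfre 2). Of the 12 genes with like profiles 3 remained with library totals and 4 to 8 with a library left out.

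The replicate numbers did not pair the samples: deviations of same-numbered libraries from their group means correlated at 0.0270, 0.0813, -0.136 and 0.0339. With the replicate number as a block, 2 of the 10 genes had an unadjusted p under 0.05 and 0 other pathway, 0 male-biased and 0 female-biased genes were called, as were 0 of all genes. Depth limits Cux2, at 0 to 86 counts a library. The intervals of Socs2 and Cish are wide, as is their spread between libraries.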
